A study of Mus musculus with 20 samples.

Results

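Kallikreins are secreted serine proteases, and the genes described here are 9 of them (Klk1, Klk5, Klk6, Klk7, Klk8, Klk10, Klk11, Klk13 and Klk14) with Spink5, which encodes LEKTI, an inhibitor of the skin kallikreins. These 10 members of the 55471 genes in the count table were chosen by name, as the kallikreins linked to shedding of the skin surface set beside the glandular kallikrein of the pancreas. Their levels in skin and pancreas were known when they were chosen, so the difference between the tissues is given below as a description without a test. RNA was sequenced in 20 libraries of WT mice, 5 in each of 4 groups. In the skin model, DNFB, a contact allergen, was applied in acetone to the back skin of male and female mice 4 to 6 weeks of age. The challenge solution held 0.25% DNFB and was given 3 times a week over 22 days, with acetone alone as the control, and the epidermis was taken for RNA (the labels name the source "Epithelial skin"). In the pancreas model, caerulein, a cholecystokinin analogue that injures acinar cells, was injected at 50 μg/kg in PBS, 6 times a day on 3 days a week for 3 weeks, with PBS alone as the control. No label says that the libraries of a group came from separate animals, so every p-value measures the spread between these samples, which may be technical.

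In the outermost layers of the epidermis, trypsin-like and chymotrypsin-like kallikreins cut corneodesmosomes, the junctions that hold dead keratinocytes together, and so allow the surface to shed. They are made as inactive proenzymes that activate one another, and LEKTI, released by the granular layer, holds them in check. Its loss causes Netherton syndrome, in which the barrier fails. Klk1, the tissue kallikrein of pancreas, kidney and salivary gland, instead releases kinins from kininogen.

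The 9 kallikrein genes lie on the plus strand of chromosome 7 (GRCm38). Klk14, Klk13, Klk11, Klk10, Klk8, Klk7, Klk6 and Klk5 follow each other in this order over 160.8 kb, from chr7:43690418, where Klk14 starts, to chr7:43851181, where Klk5 ends. Klk1 (chr7:44225360-44229618) lies 374.2 kb farther on, with 26 other numbered kallikrein genes in between.

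The 150 bases before the RefSeq transcription start (GRCm38.p6, plus strand) are shown for 5 members: for Klk1, the member of pancreas; for Klk6 and Klk10, whose mean levels were higher in DNFB-treated skin; for Klk5, whose mean level was lower there; and for Klk8, which holds the same 6 letters as Klk6 and Klk10. Capitals mark TTAAAA.
Klk1 (chr7:44225210-44225359): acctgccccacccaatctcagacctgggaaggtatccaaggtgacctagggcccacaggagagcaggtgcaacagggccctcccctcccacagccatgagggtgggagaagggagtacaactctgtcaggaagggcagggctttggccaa
Klk5 (chr7:43842119-43842268): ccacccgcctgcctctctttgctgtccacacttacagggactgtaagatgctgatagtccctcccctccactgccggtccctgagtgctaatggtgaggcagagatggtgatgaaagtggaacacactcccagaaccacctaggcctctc
Klk6, the downstream of its starts (chr7:43825300-43825449): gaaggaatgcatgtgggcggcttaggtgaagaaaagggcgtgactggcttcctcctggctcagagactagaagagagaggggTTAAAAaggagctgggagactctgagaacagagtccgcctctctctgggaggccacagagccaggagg
Klk8 (chr7:43797427-43797576): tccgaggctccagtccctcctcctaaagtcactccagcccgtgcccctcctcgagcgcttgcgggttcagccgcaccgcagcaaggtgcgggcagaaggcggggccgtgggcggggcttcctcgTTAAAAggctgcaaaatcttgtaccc
Klk10 (chr7:43780904-43781053): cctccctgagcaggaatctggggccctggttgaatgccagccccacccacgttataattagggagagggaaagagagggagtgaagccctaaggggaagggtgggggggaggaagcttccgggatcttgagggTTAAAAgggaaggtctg

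Over the 250 bases before each of the 11 starts of the 9 kallikreins, TTAAAA occurred, on either strand, in 4 windows, those of Klk6, Klk8, Klk10 and one start of Klk11, and in 17.7% of 32851 mouse promoters. This word was chosen after the sequences had been read. TATAAA (12.4% of all promoters), the AP-1 word TGANTCA (6.75%) and the grainyhead word AACCNGTT (1.79%) occurred in 0 of the 11 windows. These matches describe letters in short windows and say nothing about which factors act there.

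The libraries were shallow for this purpose. Total counts ran from 791491 to 2232039, but 3 satellite-like genes (Gm10800, Gm10801 and Gm21738) held 37.4% to 93.0% of them, and the counts on all other genes ran from 86345 to 1082423. Levels are given as normalized CPM, counts scaled to a common library size by 1 TMM normalization of all 20 libraries, on which scale 1 count was worth 0.110 to 2.71. A count of 0 therefore allows a level of up to 3 counts. Acetone libraries 11 and 12 stood apart in skin as the acetone libraries with the most counts outside those genes. Leaving out both moved the log2 fold changes of Klk7, Klk8 and Spink5 and the mean log2 differences of Klk5, Klk11 and Klk13, as given beside them. The log2 fold change of Klk6 was then 4.51 (adjusted p = 0.183 with edgeR). Krt5, Krt14 and Krt1, keratinocyte keratins, had 7 or more counts in each of the 10 skin libraries. Krt10, a suprabasal keratin, went down to 2 counts, and Lor, the loricrin gene of the granular layer, had 0 to 7 counts and passed 3 in only 3 of the 10. In pancreas, the acinar enzyme genes Ctrb1, Prss2, Cela1 and Cpa1 had 224 or more counts in each of the 10 libraries.

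**Figure D1:**
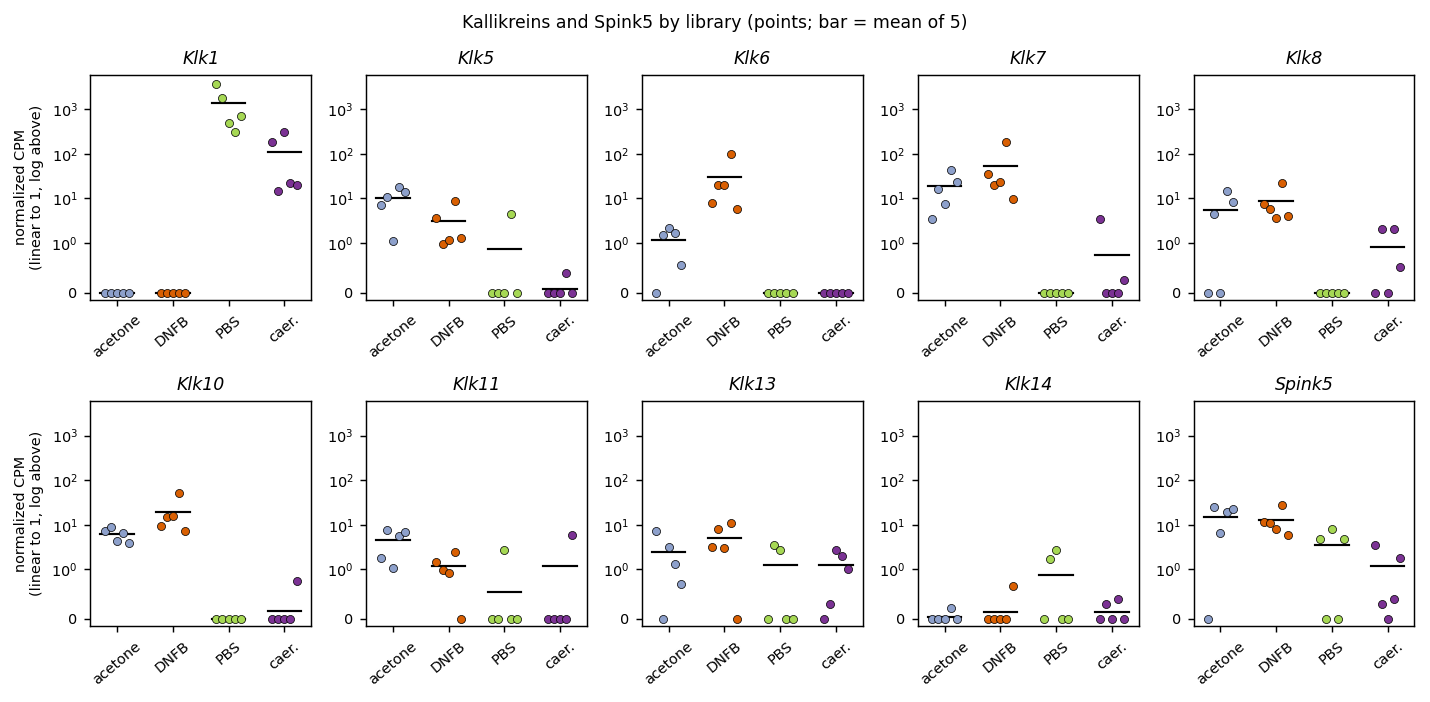
Normalized CPM of the 10 members (vertical axis, linear to 1 and logarithmic above) in each library of the 4 groups, with points for libraries and a bar for the mean of 5. Klk1 was at 0 in all 10 skin libraries and at 313 or more in the 5 PBS libraries, and Klk6 showed the inverse, at 0 in all 10 pancreas libraries.

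The members fell into a skin and a pancreas pattern, and this split is what they were chosen for. Spink5 is no neighbour of the cluster and lies on chromosome 18. Klk1 had 0 counts in each skin library. In pancreas treated with PBS its normalized level was 1382 ± 1396 (SD, n = 5). Klk6 had 0 counts in each pancreas library, and Klk7, Klk8 and Klk10 had 0 in each PBS library. Traces of skin kallikreins appeared in pancreas at the level of a few counts: Klk8 had 14 counts over 3 caerulein libraries, Klk13 had 12 over 4 and Klk11 had 23, all in caerulein library 20. Klk14, a potent trypsin-like protease of human stratum corneum, had no more than 2 counts in any of the 20 libraries, so no fold was computed for it. Along the cluster, the expressed skin kallikreins were neighbours at one end, and Klk1 stood at the other end.

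**Figure D2:**
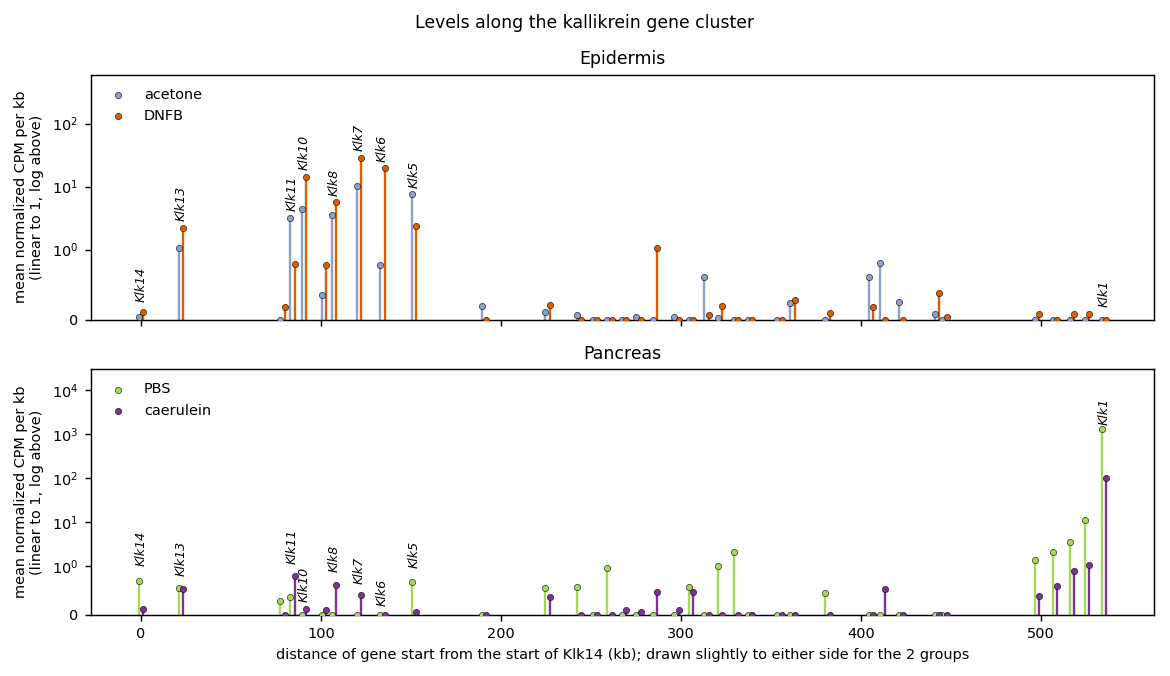
Mean normalized CPM per kb of exon (vertical axis, linear to 1 and logarithmic above, n = 5 libraries per group) of the 37 kallikrein genes against the distance of each start from the start of Klk14 in kb, with epidermis above and pancreas below. Skin levels stood over the 160.8 kb from Klk14 to Klk5, with Klk7 at 10.04 in acetone-treated and 28.8 in DNFB-treated skin, and pancreas levels at the Klk1 end.

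Klk1 was lower in caerulein-treated than in PBS-treated pancreas. Its normalized CPM was 3670.3, 1752, 485, 313 and 690.1 in PBS libraries 7, 8, 15, 16 and 17, from 1514, 1020, 179, 141 and 290 counts. After caerulein it was 187, 14.8, 301, 21.7 and 19.9 in libraries 9, 10, 18, 19 and 20, from 106, 50, 217, 54 and 78 counts. The groups did not overlap, by a narrow margin, since the highest caerulein library (301) lay just under the lowest PBS library (313). Both groups were uneven inside: PBS library 7 was over the other PBS libraries, and caerulein libraries 9 and 18 stood well above the remaining caerulein libraries. Libraries 9 and 18 had 104801 and 156133 counts outside the satellite-like genes, within the PBS range of 86345 to 217668. Caerulein libraries 10, 19 and 20 had 571690, 391337 and 614708. Within PBS, libraries 7 and 8 had the most such counts and the highest Klk1 levels. The part of depth in the Klk1 difference was not tested. The mean after caerulein was 109 ± 130 (SD, n = 5), 12.7-fold under that after PBS.

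The edgeR quasi-likelihood fit over 946 pancreas genes gave Klk1 a log2 fold change of -3.45 (SE 0.91, adjusted p = 0.0252). Of the genes tested, 36 were called lower, which is 3.81%, and 79 higher, which is 8.35% (115 in either direction, 12.2%). Groups that did not overlap were seen in 20 genes with caerulein lower, which is 2.11%, and in 19 with caerulein higher, which is 2.01%. Klk1 was the only member that passed the filter on low counts in pancreas. It was also called by DESeq2, which called 735 of 38895 genes with a count (1.89%), and by edgeR without the filter, which called 1297 (3.33%). Of the other members, 8 had a count in pancreas, and their two-sided exact permutation p-values ran from 0.167 to 1, with 7.07% of all genes with a count under 0.05 before adjustment. Its call was lost in 5 of the 10 fits that left out 1 library, with adjusted p = 0.0900 without PBS library 7, 0.0527 without PBS library 15, 0.0565 without PBS library 17, 0.0545 without caerulein library 19 and 0.0507 without caerulein library 20. Over the 10 fits the log2 fold change ran from -4.21 to -2.93. As a share of the counts outside the satellite-like genes, the fall was 6.60-fold, from 0.364% ± 0.226 to 0.0551% ± 0.0608 (SD, n = 5 each).

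The acinar enzyme genes fell with Klk1. Of 11 genes in that list, 11 were tested, 10 were lower and 0 higher, with a median log2 fold change of -3.30 against 0.06 over all genes tested; Cpb1, encoding carboxypeptidase B, missed the threshold at -2.15 (adjusted p = 0.0604). Pnlip, pancreatic lipase, had the most negative value of the list, -4.40 (SE 0.87, adjusted p = 0.0119), and Amy2a5, an amylase, had -3.74 (SE 0.82, adjusted p = 0.0127). The summed level of the list ran from 9627 to 148145 normalized CPM after PBS and from 1317 to 17026 after caerulein. In bulk tissue, fewer acinar cells and less RNA per acinar cell cannot be told apart.

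Set against that list, Klk1 still had lower mean values after caerulein. It had 2.52 ± 0.457 counts for every 100 counts of the acinar genes after PBS and 1.46 ± 0.635 after caerulein (SD, n = 5 each). These values overlapped, from 1.997 to 3.25 after PBS and from 0.872 to 2.42 after caerulein. Spink1, the trypsin inhibitor that acinar cells secrete with their zymogens, was also lower (log2 fold change -2.57, SE 0.82, adjusted p = 0.0456). The log2 ratio of Klk1 to Spink1 counts was 2.77 ± 0.25 after PBS and 1.76 ± 0.42 after caerulein. The groups nearly touched, with 2.44 as the lowest PBS value and 2.40 as the highest caerulein value. These 2 values came from 179 and 33 counts in PBS library 15 and 217 and 41 in caerulein library 18, a gap too small to read as a separation. How often ratios of other genes separate the groups was not counted. These ratios were chosen after the counts had been seen, so no p-value is given for them. Markers of other cells moved the other way: Lyz2 and Cd74, leukocyte genes, and Dcn, a fibroblast gene, were higher by 4.60, 2.72 and 2.77 on the log2 scale (adjusted p = 0.0194, 0.0304 and 0.0373), 2 of 3 leukocyte and 1 of 4 fibroblast markers tested. The summed leukocyte level ran from 60.6 to 221.5 after PBS and from 143 to 2118 after caerulein. The part of these cells in the Klk1 result was not tested.

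**Figure D3:**
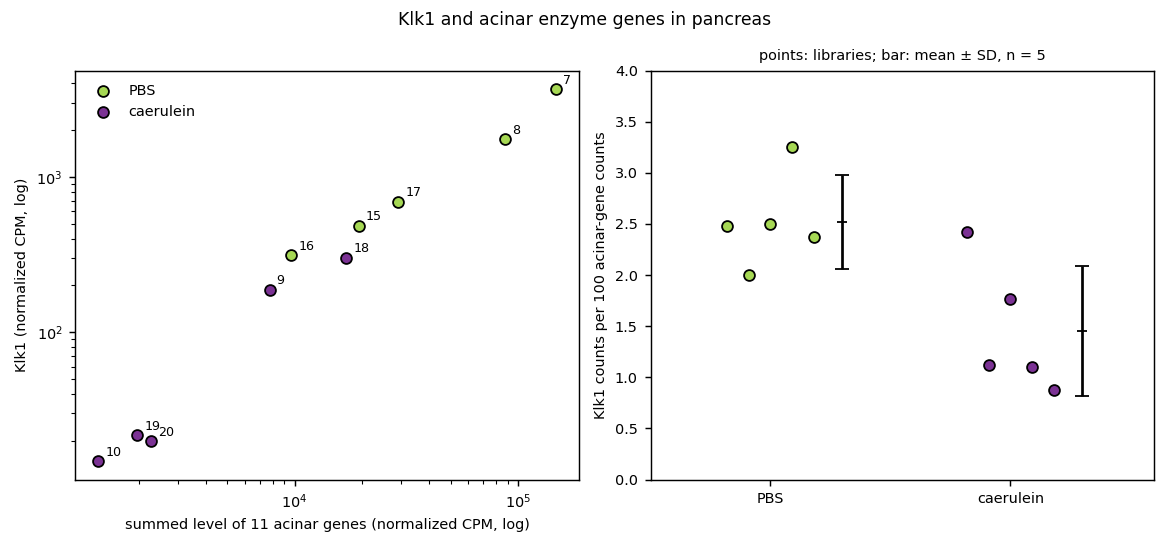
Left, Klk1 against the summed level of 11 acinar genes (both normalized CPM on log axes) in 10 pancreas libraries, numbered as in the labels; right, Klk1 counts for every 100 counts of those genes, with points for libraries and a bar for mean ± SD (n = 5). Klk1 ran along with the acinar sum over the full range, and the ratio was 2.52 after PBS and 1.46 after caerulein.

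The genes whose levels followed Klk1 most closely over the 10 pancreas libraries were acinar products too. By Pearson's r of log2 levels they were Clps (r = 0.998), the colipase gene, Zg16 (0.997), a zymogen granule protein gene, Dmbt1 (0.994), Ctrl (0.993), a chymotrypsin-like protease gene, and 2210010C04Rik (0.993). The libraries share a difference between the treatment groups and in depth (r of Klk1 with log2 depth, -0.65), so these values are descriptions. Klk1 also has near-identical relatives: 24.0% of the 50-base words of its transcript occur in another kallikrein gene, 15.9% in Klk1b5 alone, so reads can be split between them in estimation. Klk1b genes held 1.496% to 16.1% of the summed Klk1 and Klk1b counts in the pancreas libraries. The other 9 members shared none of their 50-base words with another kallikrein or Spink gene.

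In the epidermis, the question was which kallikreins differ between DNFB-treated and acetone-treated skin. None of the members passed the threshold on adjusted p, and the largest difference was that of Klk6, whose mean level was 25.6-fold higher after DNFB. The edgeR fit tested 7265 genes in skin and called 3 (0.0413%), 2 higher (0.0275%) and 1 lower (0.0138%). Of the 10 members, 5 passed the filter (Klk6, Klk7, Klk8, Klk10 and Spink5), 0 were called, and 2 of them had an unadjusted p under 0.05, as had 422 of the 7265 genes (5.81%). DESeq2 called 78 genes (0.18% of 43251 genes with a count), Klk6 among them as the only member.

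Klk6, a trypsin-like protease also known as neurosin, was near 0 after acetone and among the leading kallikreins after DNFB. Its counts were 0, 1, 2, 15 and 4 in acetone libraries 1, 2, 3, 11 and 12, or 0, 1.51, 2.16, 1.65 and 0.566 normalized CPM. In DNFB libraries 4, 5, 6, 13 and 14 the counts were 22, 20, 86, 435 and 9, or 7.89, 19.8, 19.99, 97.0 and 5.94 normalized CPM. Every DNFB library lay above every acetone library, and DNFB library 13 was the highest. Such a separation with DNFB higher was seen in 45 of the 7265 genes tested, which is 0.619%, and with DNFB lower in 40, which is 0.551%.

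The log2 fold change of Klk6 was 4.58 (SE 0.88, adjusted p = 0.0616 with edgeR). The exact two-sided permutation test of its log2 level gave p = 0.00794, the smallest that 252 splits of 5 against 5 allow, and an adjusted value of 0.721 over all genes with a count. The call depended on the fit: DESeq2 gave 4.62 (adjusted p = 0.000257), edgeR without the filter on low counts, which called 108 genes (0.25% of 43251), gave 4.53 (adjusted p = 0.00196), and leaving out acetone library 3, DNFB library 4 or DNFB library 14 gave an adjusted p of 0.0367, 0.0382 or 0.0372. Without DNFB library 13 the log2 fold change was 3.32 (adjusted p = 0.117).

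Klk7 and Klk10 had higher mean levels after DNFB but overlapped between groups. Klk7, the chymotrypsin-like corneodesmosome protease, had 3.55, 16.6, 7.58, 43.7 and 23.8 normalized CPM in the acetone libraries and 35.1, 19.8, 23.7, 184 and 9.89 in the DNFB libraries, in the order given above. Its log2 fold change of 1.39 (SE 0.82, adjusted p = 0.906) was 0.02 without DNFB library 13, which held 827 of the 1062 DNFB counts, and 2.62 (adjusted p = 0.378) without acetone libraries 11 and 12. Klk10, a family member with little known proteolytic activity, had 7.09, 9.04, 4.33, 6.36 and 3.82 after acetone and 9.32, 14.8, 15.3, 52.2 and 7.26 after DNFB. Only DNFB library 14 fell within the range of the acetone libraries. The log2 fold change of Klk10 was 1.69 (SE 0.60, adjusted p = 0.642 with edgeR), and 0.87 without DNFB library 13.

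Klk5, the trypsin-like protease that activates Klk7 and is a main target of LEKTI, had values in the other direction. It had 7.09, 10.6, 1.08, 18.1 and 13.7 normalized CPM in the acetone libraries and 3.58, 0.989, 1.16, 8.70 and 1.32 in the DNFB libraries. Acetone library 3, with 1 count, lay among the DNFB libraries, and DNFB library 13 lay among the acetone libraries. Its mean was 10.1 ± 6.48 after acetone and 3.15 ± 3.28 after DNFB (SD, n = 5 each), a mean log2 difference of -1.38 (exact permutation p = 0.103).

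Klk11, a trypsin-like kallikrein of keratinocytes, had a similar set of values. It had 1.77, 7.54, 1.08, 5.70 and 6.94 normalized CPM after acetone and 1.43, 0.989, 0.930, 2.45 and 0 after DNFB, a mean log2 difference of -1.26 (exact permutation p = 0.0556). Neither Klk5 nor Klk11 passed the filter on low counts of the edgeR fit. Adjusted over all 43251 genes with a count in skin, their exact p-values were 0.985 and 0.961, and 0 genes passed 0.05 in that test, with 2209 (5.11%) under 0.05 before adjustment. The smallest exact p that 252 splits allow is 0.00794, so no gene could pass alone after this adjustment.

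Klk8, or neuropsin, which takes part in shedding and in brain, had 0, 3, 0, 134 and 59 counts in the acetone libraries and 21, 6, 16, 99 and 6 in the DNFB libraries. Acetone libraries 1 and 3 were at 0 and the groups overlapped, with a log2 fold change of 0.33 (SE 0.74, adjusted p = 0.976 with edgeR). It was -0.45 without DNFB library 13, 1.009 without acetone library 11 and 2.63 (SE 1.05, adjusted p = 0.400) without acetone libraries 11 and 12. The mean log2 difference of Klk8 with all libraries was 1.04. Klk13 had 4, 0, 3, 12 and 5 counts after acetone and 9, 8, 13, 49 and 0 after DNFB, also with overlap (mean log2 difference 0.74, exact permutation p = 0.365). Without acetone libraries 11 and 12 the difference of Klk13 was 0.46.

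Spink5, which encodes the inhibitor LEKTI, overlapped between the groups. Its normalized CPM was 0, 25.6, 6.49, 19.4 and 22.7 in the acetone libraries and 11.5, 10.9, 7.90, 27.4 and 5.94 in the DNFB libraries. The means were 14.8 ± 11.05 after acetone and 12.7 ± 8.52 after DNFB (SD, n = 5 each), with a log2 fold change of -0.36 (SE 0.66, adjusted p = 0.976 with edgeR), and of 0.30 (adjusted p = 0.948) without acetone libraries 11 and 12. With all libraries kept, the mean log2 difference of Spink5 was 0.28, so its sign also depended on the measure. The log2 ratio of Klk6 to Spink5 counts, with 1 added to each, was -2.58 ± 1.97 after acetone and 0.68 ± 0.95 after DNFB, and the groups overlapped. For Klk5 over Spink5 it was -0.29 ± 1.59 and -2.02 ± 0.50.

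Shares of the kallikrein counts did not overlap between the groups for 3 of the 8 genes, Klk5, Klk6 and Klk11. The margins were narrow for Klk5 and Klk6, and the Klk11 shares of acetone libraries 1 and 3 rested on 1 count each. The 3 of 8 is a description only, since no rate for other gene sets was counted and the shares are tied to each other. Within each skin library, the counts of the 8 skin kallikreins were set to 100%, which removes the scaling of libraries but not the effect of their depth. Klk6 made up 3.38% ± 4.46 of these counts after acetone and 23.1% ± 7.29 after DNFB (SD, n = 5 each), with 0% to 11.1% against 11.6% to 29.5%. Klk5 made up 19.4% ± 8.16 after acetone, from 5.56% to 26.7%, and 3.05% ± 1.74 after DNFB, from 1.41% to 5.26%. Klk11 made up 9.11% ± 4.23 and 1.11% ± 0.805, from 5.56% to 15.2% and from 0% to 2.11%.

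For these 3 genes the groups did not overlap. The shares of Klk7, Klk8, Klk10, Klk13 and Klk14 overlapped, and Klk7 was the main part of both groups on average, with 34.8% ± 13.1 and 39.5% ± 10.1. Shares of a whole are tied, so a higher share of one gene lowers the others. The shares were computed after the counts had been seen, so no p-value is given for them. How often shares within other gene sets separate the groups was not counted.

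The margins were thin where counts were few. Acetone libraries 1, 2 and 3 had only 15, 33 and 18 kallikrein counts, and the Klk5 share of acetone library 3 rested on 1 count (exact binomial 95% interval 0.141% to 27.3%). The Klk11 shares of acetone libraries 1 and 3 also rested on 1 count each (0.169% to 31.9% and 0.141% to 27.3%). In DNFB library 14, Klk11 had 0 of 44 counts (0% to 8.04%). In the libraries with the most kallikrein counts of each group the intervals were narrow: 165 of 836 counts in acetone library 11 were Klk5 (17.1% to 22.6%), against 39 of 1694 in DNFB library 13 (1.64% to 3.13%). For Klk6 these libraries had 15 of 836 (1.008% to 2.94%) and 435 of 1694 (23.6% to 27.8%). These intervals cover counting error only and treat each read as an independent draw. The reads carried no molecular identifiers, so copies of 1 molecule may be counted more than once and the intervals may be too narrow. Shares also differed between shallow and deep acetone libraries: Klk10 held 26.7%, 18.2% and 22.2% in libraries 1, 2 and 3, and 6.94% and 6.60% in libraries 11 and 12.

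**Figure D4:**
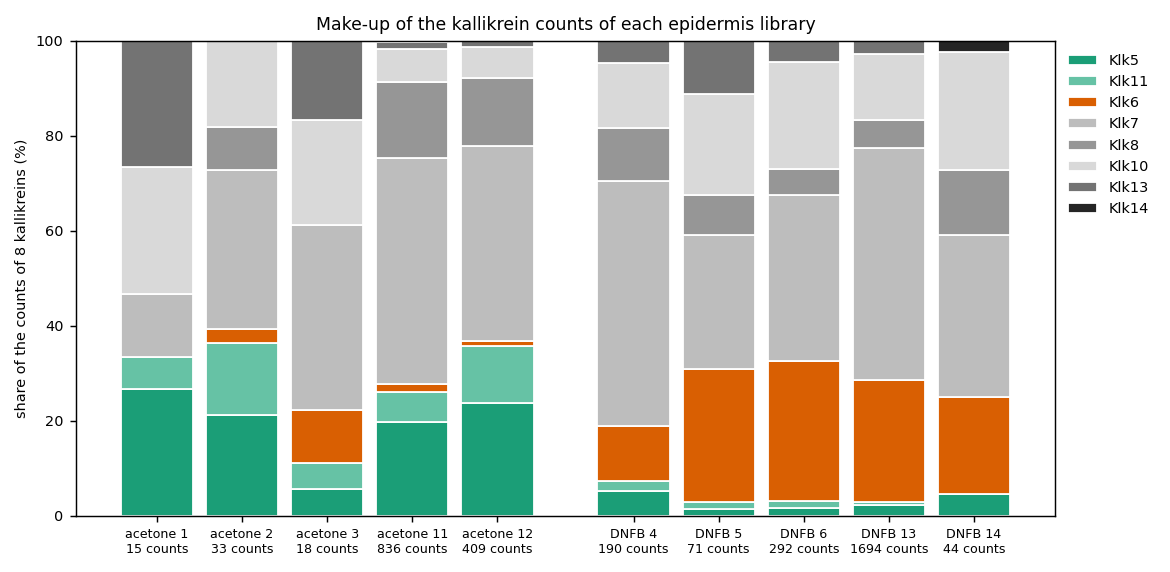
Share of each of 8 kallikreins in their summed counts (vertical axis, percent) for each of 10 skin libraries, with the summed count under each bar. Klk5 and Klk11 (green) held 3.05% and 1.11% on average after DNFB and 19.4% and 9.11% after acetone, while Klk6 (orange) held 23.1% and 3.38%.

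The order of the members by level per kb of exon, which allows genes to be compared, was led by Klk7 in both skin groups. After acetone it ran Klk7 (10.04 normalized CPM per kb), Klk5 (7.57), Klk10 (4.47), Klk8 (3.58), Klk11 (3.14), Spink5 (3.10), Klk13 (1.08), Klk6 (0.778) and Klk14 (0.0345). Except for Klk6 above Klk14, each gap to the next gene was smaller than its own SD over the 5 libraries. After DNFB it ran Klk7 (28.8), Klk6 (19.9), Klk10 (14.4), Klk8 (5.61), Spink5 (2.66), Klk5 (2.36), Klk13 (2.18), Klk11 (0.792) and Klk14 (0.104). There, Klk10 lay above Klk8, and Klk8 above Spink5, in 5 of 5 libraries. Klk13 lay above Klk11 in 4 of 5 and tied at 0 in the other, and the remaining neighbours from Klk7 to Klk13 changed places in at least 1 library. Klk6 was the eighth after acetone and next to Klk7 after DNFB.

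The lists around the kallikrein pathway gave 0 calls in skin, where 0.0413% of all genes tested were called. Of 12 other proteases linked to shedding, 8 were tested in skin and 0 were called (median log2 fold change 0.19, against 0.02 over all genes tested). The same held for 8 tested of 24 inhibitors (0 called, median -0.35), 7 of 18 substrates and receptors (0 called, median -0.04) and 6 of 9 transcription factors and upstream genes of late differentiation (0 called, median -0.54, with 0 positive values). Among substrates, Dsg1a, a desmosomal cadherin, had a log2 fold change of -1.85 (adjusted p = 0.607), and Flg, the filaggrin gene, 1.81 (adjusted p = 0.607). Il1b, the interleukin-1β gene, had 5.47 (adjusted p = 0.0523).

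Of 12 suprabasal and granular markers, 10 were tested, and only Krt77, a suprabasal keratin, was called lower (log2 fold change -7.34, SE 1.11, adjusted p = 0.0313 with edgeR). The summed level of that list ran from 87.7 to 903 normalized CPM after acetone and from 70.6 to 380 after DNFB. The summed level of hair follicle markers ran from 37.2 to 1022 and from 118 to 1515, and that of leukocyte markers from 39.0 to 512 and from 34.8 to 117. Of 6 fibroblast markers, 5 were tested, with 0 called, 0 positive values and a median log2 fold change of -1.86, and their summed level ran from 76.3 to 337 and from 64.3 to 116. Of 6 basal keratinocyte markers, 5 were tested, with 0 called, 1 positive value and a median of -1.30. The most negative were Krt15 at -2.99 (adjusted p = 0.253) and Col17a1 at -2.36 (adjusted p = 0.631). Krt14, the marker with the highest level, had the positive value, 0.40 (adjusted p = 0.976). The summed level of the basal list ran from 117 to 1513 and from 91.7 to 1232. Acetone libraries 11 and 12 were the 2 highest acetone libraries for hair and for leukocyte markers. The part of these cell mixtures in the kallikrein values was not tested. In pancreas, 2 of the 12 proteases and 4 of the 24 inhibitors were tested. Of these, Ctsl, the cathepsin L gene, and Slpi, a secreted leukocyte protease inhibitor gene, were higher, by 2.69 (adjusted p = 0.0239) and 5.04 (adjusted p = 0.0127) on the log2 scale, and Spink1, given above, was lower.

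Genes whose levels followed the 5 tested skin members most closely, by Pearson's r with the mean of their standardized log2 levels over the 10 skin libraries, were Crabp2 (r = 0.94), a retinoic acid binding protein gene, Lrrfip1 (0.93), Aqp3 (0.91), an epidermal water and glycerol channel gene, Gjb2 (0.90), a gap junction gene, and Sprr1a (0.90), a cornified envelope gene. The members' mean had r = 0.54 with log2 depth, and none of these 5 genes was called between DNFB and acetone, with adjusted p from 0.717 to 0.965.

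The difference of the response between skin and pancreas was fitted over all 20 libraries and 8336 genes, of which 22 were called (0.264%). Of the 10 members, 6 were tested and 0 were called by edgeR. An unadjusted p under 0.05 was seen in 0 of the 6 and in 1540 of the 8336 genes (18.5%). Klk1 and Klk6 were at 0 in every library of 1 tissue, with an SE of 6434 and 12064, so this fit could not call them. The 0 of 6 therefore cannot be compared with the 18.5%. DESeq2, which called 875 of 45075 genes (1.94%), called Klk6 (6.02 on the log2 scale, adjusted p = 0.0264). The edgeR fit without the filter, which called 1009 (2.24%), called Klk11 (-4.86, adjusted p = 0.0345). Each of the members was at or near 0 in one of the tissues, so these values depend on how zeros are modelled and give no size of a difference.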

How the data were processed

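Epidermis and pancreas libraries were made with a modified Smart-Seq2 protocol. Per the labels and the paper's methods, the authors aligned reads with STAR 2.5.3 to mm10 and estimated gene levels by RSEM 1.3.1. The deposited table holds expected counts, which are not normalized and can split reads between near-identical genes. Here counts were rounded to whole numbers. The gene annotation used upstream is not given in the sources used here, and names and coordinates were taken from GENCODE M21 (GRCm38). The labels also name DESeq2 1.24.0.

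Each tissue was fitted with edgeR 4.0.16 in R 4.3.3 (filterByExpr, minimum count 10, TMM, glmQLFTest, Benjamini-Hochberg threshold 0.05) over all genes, and all 20 libraries were fitted together for the difference of the responses. SE is the log2 fold change divided by the square root of F. Members that missed the filter had a two-sided exact permutation test (numpy 2.4.6) of log2(normalized CPM + 1.03), the pseudocount being 1 count of the median library. Binomial intervals are Clopper-Pearson at 95% (scipy 1.17.1). Both procedures were checked on simulated data. DESeq2 1.42.0, other scalings, other filters, a covariate for label numbers over 10 and leaving out each library were the alternatives. The 40 pairs of libraries within groups held 0 identical ones and differed by more than sampling noise. The members and lists were chosen with earlier results of these data known. Named beyond the members were genes of the lists that passed the threshold or were given a sentence of their own, and the 5 genes per tissue most like the members.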

Additional observations from a re-analysis of the deposited data

Results flagged for a closer look

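In 2 of 28 groups of 5 values, 1 library stood far from the others by Dixon's criterion (critical value 0.71), and chance gives about 1 in 20 groups, or 1.4 of 28. Klk11 was at 5.86 normalized CPM (23 counts) in caerulein library 20, where the other 4 caerulein libraries had 0 counts. The share of Klk6 among the skin kallikrein counts was 11.1% in acetone library 3 (2 of 18 counts), against 0% to 3.03% in the other acetone libraries.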

How the results depend on the processing

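No paired analysis was possible because the label numbers, 1 to 20, are not repeated across groups. In skin, 3 genes were called. Library totals without TMM gave 0, leaving out the satellite-like genes 5, no filter on low counts 108, a minimum count of 5 gave 9, DESeq2 78, the label-number covariate 12, leaving out acetone libraries 11 and 12 gave 1, and leaving out 1 library gave 0 to 59. Called members numbered 0 in skin. They were 1, Klk6, with no filter (4.53), DESeq2 (4.62) and the covariate (4.71), and 0 to 1 with 1 library left out, where the log2 fold change of Klk6 was 3.32 to 4.92 and its adjusted p 0.0367 to 0.244. The value of Klk8 changed sign with library totals (-0.12), with no filter (-0.076) and without DNFB library 13 (-0.45), over a range of -0.45 to 1.009 with 1 library left out. Without acetone libraries 11 and 12 that of Spink5 changed sign (0.30), and those of Klk8 and Klk7 were 2.63 and 2.62. The mean log2 differences of Klk5, Klk11 and Klk13 were then -0.77, -0.86 and 0.46. In pancreas, 115 genes were called, 79 higher and 36 lower. Library totals gave 530 (511 higher and 19 lower, with the median of all genes at 1.69 rather than 0.06), no filter 1297 (1237 and 60), DESeq2 735 (641 and 94), and 1 library left out 15 to 280. Klk1 was called in each alternative that kept all libraries, at -3.79 to -2.79 (adjusted p 0.00133 to 0.0369), and with 1 library left out 0 to 1 members were called (-4.21 to -2.93, adjusted p 0.0154 to 0.0900). For the difference of the responses, 22 genes were called. RLE gave 37, library totals 0, no satellite-like genes 39, no filter 1009, a minimum count of 5 gave 49, DESeq2 875, the covariate 4, without acetone libraries 11 and 12 it was 0, and 1 library left out gave 0 to 625. Called members were 0, and 1 with no filter and with DESeq2. The cause of these changes was not tested. Depth limits the values in skin: acetone libraries 1, 2 and 3 held 15 to 33 counts of the 8 skin kallikreins.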

Other observations

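The 28 kallikrein genes of the cluster that are not members had few counts in these libraries, 30 in all after acetone, 47 after DNFB, 63 after PBS and 43 after caerulein. In skin, Klk9, which lies between Klk10 and Klk8, was the only one of them with a library over 3 counts in either group. It had 10 counts over the 5 acetone libraries and 17 over the 5 DNFB libraries. In pancreas, Klk1b4 and Klk1b5 passed 3 counts in a PBS library, and Klk1b21 and Klk1b5 in a caerulein library. Klk1b5, the gene that shares most sequence with Klk1, had 37 counts over the PBS libraries, or 11.2 ± 9.76 normalized CPM per kb (SD, n = 5), and 6 over the caerulein libraries, where Klk1 had 3144 and 505. These values were chosen after they had been seen and no p-value is given for them.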
